A study of Mus musculus with 721 samples.

Results

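Wnt3, Wnt3a, Wnt5a, Wnt5b, Rspo3, Lgr4, Lef1, Axin2, Nkd1 and Sp5 are 4 Wnt ligands, a ligand and receptor that strengthen Wnt signals, and 4 genes that Wnt signalling switches on or works through. They were chosen by symbol, with earlier results of these data known, and all 10 have a row among the 24483 gene rows of the count table. They were followed from the inner cell mass (ICM) of the blastocyst to the early primitive streak, in the epiblast and in the endoderm, and in E6.5 cells with and without transcripts of T (Brachyury), the transcription factor that marks the streak.

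The study sequenced single cells of wild type C57Bl/6Babr mouse embryos by Smart-seq2, taking 721 wells in all, at daily steps from embryonic day (E) 3.5 until E6.5, and 17.8% of the wells were labelled as holding 2 cells. Trophectoderm was removed at E3.5 and E4.5, the extra-embryonic ectoderm, a known source of Wnt signals, at E5.5, and extra-embryonic tissues at E6.5. Cells still identified as trophoblast by marker genes were filtered out by the authors. Cells of the E6.5 group are titled E6.5 or E6.75, and come either from plates P1 to P3 (9 embryos) or carry no plate name (4 embryos, of which E6.75 is the title of 2). Embryos were told apart by stage, plate and number in the title, which gave 36. The study's text counts fewer, and the titles do not show whether embryos 1 and 2 without a plate name are the embryos 1 and 2 of plate P1, so both were also merged as an alternative. A cell held 66896 to 3792936 counts with a median of 692863.

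A Wnt ligand binds a Frizzled receptor with Lrp5 or Lrp6 and stops the destruction of beta-catenin, which then turns on target genes together with TCF/LEF factors. R-spondins bind Lgr receptors and keep Frizzled at the cell surface, and several targets, Axin2 and Nkd1 among them, damp the signal that induced them. In the mouse, Wnt3 is required in the posterior of the early embryo for the primitive streak to form, and T is a direct target of the pathway.

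Cells were parted by clustering in which T, the 10 genes and 59 other Wnt pathway genes took no part, and clusters were named from marker genes. All 99 cells of E3.5 were taken as ICM. Of the E4.5 cells 29 were epiblast-like and 76 primitive endoderm-like (PrE-like). E5.5 gave 260 epiblast-like cells with 7 endoderm-like ones. Of the 250 cells of E6.5 an epiblast/streak-like class held 74.8%, and an endoderm-like class held 48 cells. The 15 remaining E6.5 cells formed a cluster without a name. The E6.5 epiblast/streak-like class joined a cluster with 57.8% of its cells, led by streak genes such as Mesp1, Mesp2 and Snai1, with a cluster of 79 cells. All but 1 of the cells of the streak-led cluster had no plate name and all of the 79 came from P1 to P3, so that these clusters and the plates cannot be told apart. Of 14 endoderm markers, all 14 had counts in the E6.5 epiblast/streak-like sums, where they added up to 280.5 to 3250 CPM (counts scaled to a common library total with TMM factors) per embryo against 7.18 to 174.3 CPM in the E5.5 epiblast-like sums. The part of this endoderm RNA in the E6.5 levels given here was not tested.

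In GRCm38, Wnt3 is at chr11:103774150-103817957 on the plus strand and Wnt3a at chr11:59248033-59290752 on the minus strand. Sp5 is at chr2:70474923-70477729 on the plus strand, and T is at chr17:8434423-8442496 on the plus strand. Promoter windows of 300 bases, 250 before and 50 after the annotated start, were taken from RefSeq (GRCm38.p6). They were searched on both strands for the TCF/LEF letters CTTTGAA or CTTTGAT, and for CTTTGTA or CTTTGTT, and the matches found do not overlap each other. Of all 32851 windows 16.88% held a match and 1.939% held 2 or more. Windows were found for 8 of the 10 genes, 13 windows in all, and 4 of these held a match, in Sp5, Wnt3, Lef1 and Wnt5b. Shown are the windows of T, which splits the E6.5 cells, and of Sp5 and Wnt3, both among the genes with a match. Matching letters are in capitals. Windows without a match, such as those of Axin2, Lgr4, Nkd1 and Wnt3a, are not shown. The Sp5 window is chr2:70474673-70474972 (plus strand), that of T chr17:8434173-8434472 (plus strand) and that of Wnt3 chr11:103773925-103774224 (plus strand).
Sp5: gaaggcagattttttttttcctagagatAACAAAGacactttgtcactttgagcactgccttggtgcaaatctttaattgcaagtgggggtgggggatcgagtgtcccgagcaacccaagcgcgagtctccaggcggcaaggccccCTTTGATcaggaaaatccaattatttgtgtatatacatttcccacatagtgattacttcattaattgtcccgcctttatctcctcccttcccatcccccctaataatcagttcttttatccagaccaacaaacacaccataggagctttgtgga
T: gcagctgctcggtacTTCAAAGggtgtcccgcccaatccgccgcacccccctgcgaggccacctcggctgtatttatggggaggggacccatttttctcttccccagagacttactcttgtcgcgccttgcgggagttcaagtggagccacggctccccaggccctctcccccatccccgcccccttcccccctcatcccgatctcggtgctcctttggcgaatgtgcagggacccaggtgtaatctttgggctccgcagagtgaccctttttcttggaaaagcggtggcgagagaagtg
Wnt3: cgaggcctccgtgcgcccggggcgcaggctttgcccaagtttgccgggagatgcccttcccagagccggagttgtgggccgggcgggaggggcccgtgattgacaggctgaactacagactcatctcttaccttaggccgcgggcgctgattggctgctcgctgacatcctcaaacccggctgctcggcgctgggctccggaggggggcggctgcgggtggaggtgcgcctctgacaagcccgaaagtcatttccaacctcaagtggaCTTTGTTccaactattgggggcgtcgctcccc
The Sp5 window has 2 matches, which begin at positions -222 and -104 from the start (chr2:70474701-70474707, minus strand, and chr2:70474819-70474825, plus strand). The T window has its match from position -235, and the match of Wnt3 begins at position 19, in the transcribed part. A match of letters is a description of the window and not a measured binding site.

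Per length, the receptor Lgr4 had the highest mean level of the 10 genes in the ICM and in the epiblast of every stage. It was followed by Axin2 at E3.5, by Lef1 at E4.5 and E5.5 and by Wnt3 at E6.5, where the order differed by plate. Raw counts were added up within each embryo and class where there were 3 cells or more, which makes the embryo the replicate. Levels are in CPM of such a sum, scaled to a common library total with TMM factors. Per kilobase (kb) of exon, Lgr4 stood first in the E4.5 epiblast-like class with 40.05 ± 20.5 CPM per kb (SD, n = 5 embryos), followed by Lef1 with 9.21 ± 3.85 and Axin2 with 3.21 ± 2.24. At E5.5 the order was again Lgr4 (11.6 ± 5.14 CPM per kb, n = 8) and Lef1 (4.74 ± 0.954). At E6.5 Wnt3 stood second in the epiblast/streak-like class with 8.87 ± 7.75 CPM per kb (n = 13), within the spread of Lef1 at 5.89 ± 3.60 and of Rspo3 at 5.13 ± 6.90. Lgr4 stood first there in every embryo on P1 to P3, but not in every embryo without a plate name. In embryos 1 and 2 without a plate name and E6.75 embryos 1 and 2, Lgr4 had 6.67, 3.25, 9.74 and 9.07 CPM per kb. Wnt3 had 5.22, 10.03, 7.80 and 13.8 CPM per kb in the same order. Genes with neighbouring ranks mostly differed by less than their SD.

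**Figure D1:**
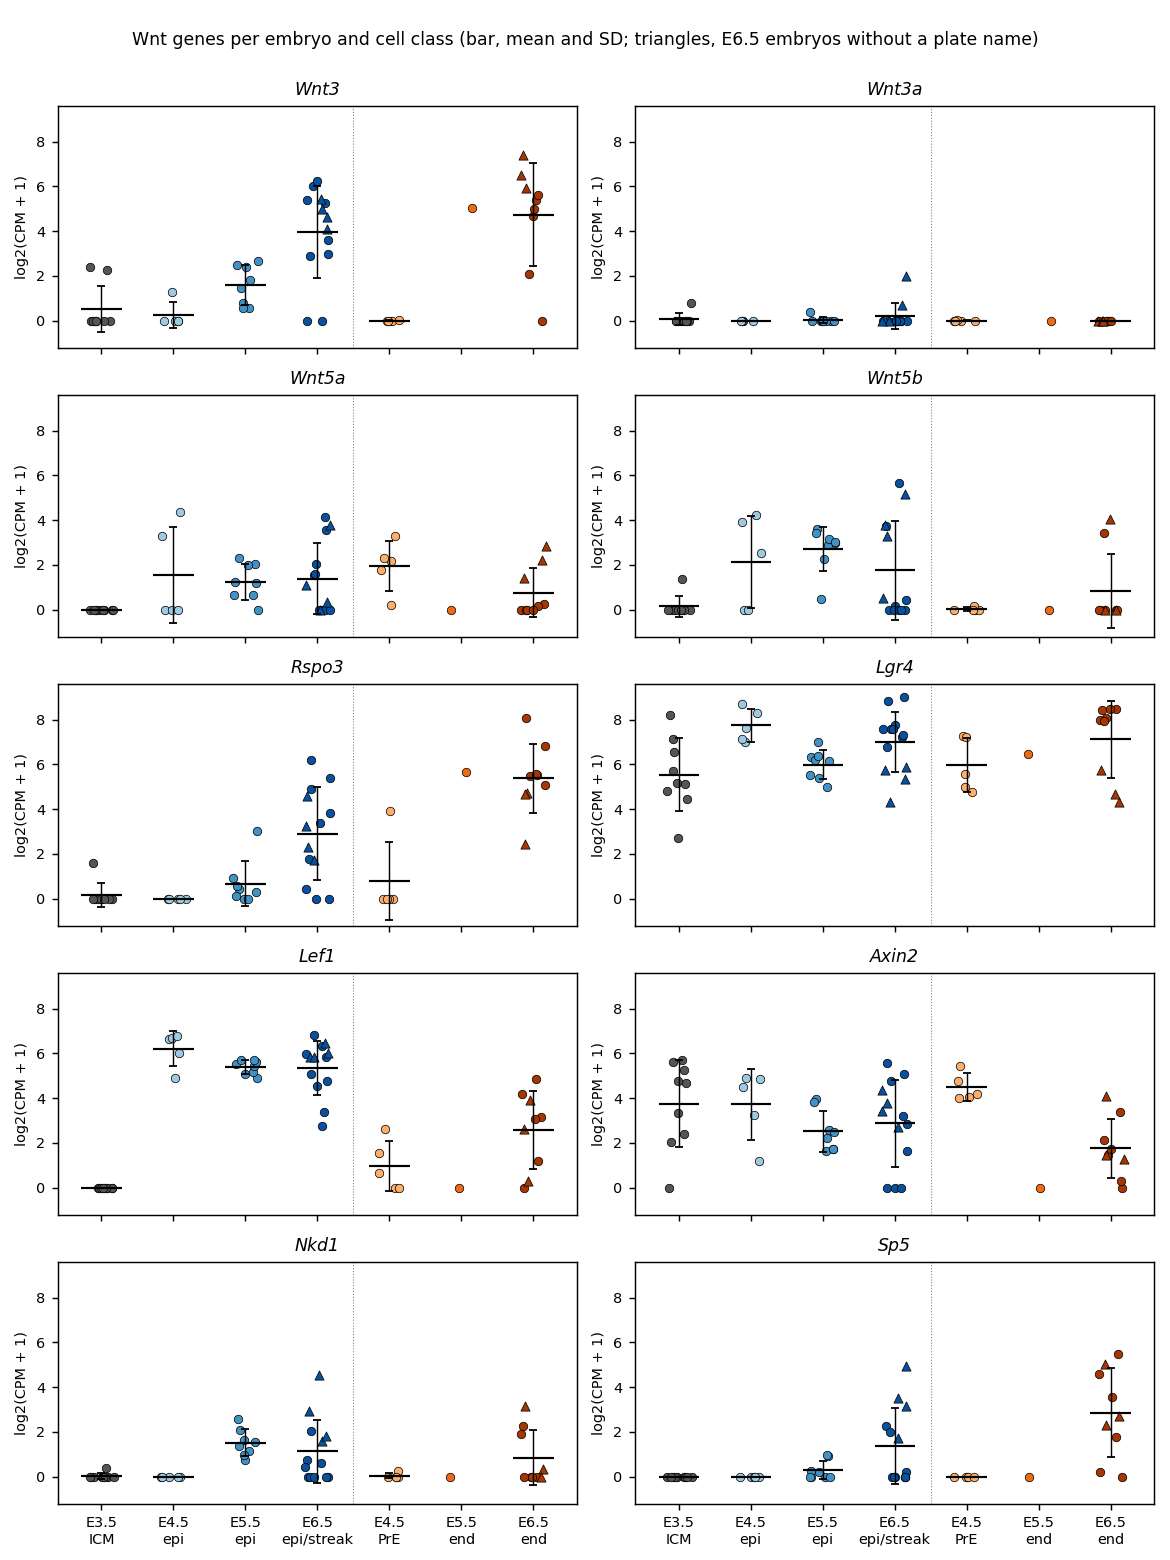
Level of each gene per embryo and class as log2(CPM + 1), with the mean and SD over embryos as black bars and E6.5 embryos without a plate name as triangles. Lef1 lies at 0 in all 9 E3.5 embryos and above 28 CPM in all 5 E4.5 epiblast-like sums, Sp5 lies at 0 in every E3.5 and E4.5 sum, and Wnt3 and Rspo3 are highest at E6.5.

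The ligands were sparse before E6.5. Wnt3 had 0 CPM in 7 of 9 E3.5 embryos, with 3.76 and 4.32 CPM in the others, and among the 5 E4.5 epiblast-like sums it had counts in 1, at 1.44 CPM, all from a single cell. At E5.5 every epiblast-like sum had Wnt3 counts, from 0.479 CPM through a median of 2.18 to 5.35 CPM. At E6.5 the 13 epiblast/streak-like sums ran from 0 through a median of 23.99 to 74.9 CPM, and 11 of them lay above the highest E5.5 embryo while 2 had no count.

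Wnt3 was the 1 of 9 tested genes that passed from E5.5 to E6.5, where 8.86% of 13130 genes passed. Its mean rose from 2.53 ± 1.98 CPM (n = 8) to 27.3 ± 23.8 CPM (n = 13), a log2 difference of 3.42 with a standard error (SE) of 1.16 and an adjusted p of 0.0486 in edgeR's quasi-likelihood test. To pass, a gene needed a log2 difference over 1 with its adjusted p at or under 0.05. Within the plates the difference was of like size, 3.44 on P1 to P3 (adjusted p = 0.0744 in the same test) and 3.48 without a plate name (adjusted p = 0.209), and neither passed. With embryos 1 and 2 without a plate name merged into those of P1 it was 3.47 (adjusted p = 0.0555 in the same edgeR test), and with E6.5 cells of under 10 CPM of T alone it was 3.20 (adjusted p = 0.0806 in the same edgeR test). Summed endoderm RNA rose in the same sums, as given above.

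Wnt3a, a ligand of the streak and tail bud, was close to absent. It had counts in 10 of the 721 cells, and 7 of these were E6.5 epiblast/streak-like. The 13 sums of that class had 0 CPM in 11 embryos, 0.636 CPM in 1 E6.75 embryo and 3.01 CPM in embryo 2 without a plate name. Too few counts were left for Wnt3a to be tested in any comparison.

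Wnt5a and Wnt5b, ligands that mostly act without beta-catenin, appeared at E4.5. Wnt5a had 0 counts in all 9 E3.5 embryos, and among the E4.5 epiblast-like sums it had 19.8 and 8.91 CPM in the embryos of plate P1 and 0 in the 3 embryos of plate P2. Of 67 Wnt5a counts in that class, 71.6% came from 1 cell. Wnt5b had a count in 1 of 9 E3.5 embryos (1.60 CPM) and in 3 of 5 E4.5 epiblast-like sums (17.5, 4.75 and 14.2 CPM). Both passed from E3.5 to E4.5, where 20.2% of the 13130 genes passed. Wnt5a was at least 101.5-fold higher, taking 3 counts over the E3.5 group as its limit and the mean of the 5 E4.5 sums (adjusted p = 0.00189, edgeR). Without E4.5 embryo 1 of plate P1 this limit was at least 39.4-fold. For Wnt5b the log2 difference was 5.03 (SE 1.61, adjusted p = 0.0200, edgeR), and without E4.5 embryo 1 its adjusted p was 0.0524. Groups overlapped in both genes, since 3 and 2 of the E4.5 sums had no count. From E4.5 on neither passed again, with Wnt5b at 6.67 ± 3.36 CPM at E5.5 (n = 8) and 9.16 ± 15.6 CPM at E6.5 (n = 13).

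Rspo3, the secreted R-spondin, was at or near 0 in the epiblast until E6.5. It had no counts in the 5 E4.5 epiblast-like sums, and the 8 E5.5 epiblast-like sums ran from 0 through 0.302 to 7.25 CPM. The 13 E6.5 epiblast/streak-like sums ran from 0 through 8.55 to 72.6 CPM, with 7 of them above the highest E5.5 value. The log2 difference from E5.5 to E6.5 was 3.74 (SE 1.36), with an adjusted p of 0.0711 in edgeR, which did not pass. It passed in 3 of 14 alternatives, among them DESeq2 (adjusted p = 0.0218).

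Lgr4, the R-spondin receptor, was found at every stage, and its level at E6.5 differed by plate. The 9 E3.5 embryos ran from 5.61 through 35.2 to 298 CPM, the highest with 741 of its 838 counts in 1 cell. The 5 E4.5 epiblast-like sums had 126.5, 194.8, 139.6, 309 and 408 CPM. The 8 E5.5 epiblast-like sums ran from 30.7 through 71.04 to 126.7 CPM, and 7 of 8 lay below all E4.5 sums. Neither step passed, with log2 differences of 1.55 (SE 0.595, adjusted p = 0.0548) from E3.5 to E4.5 and -1.79 (SE 0.614, adjusted p = 0.0666) from E4.5 to E5.5 in edgeR. These calls were near the threshold, since Lgr4 passed in 4 of 14 alternatives for the first step and in 4 of 13 for the second, with sums of at least 5 cells in both (adjusted p = 0.00502 and 0.0203).

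At E6.5 the 9 epiblast/streak-like sums of plates P1 to P3 had 107.4 to 508 CPM of Lgr4, and the 4 sums without a plate name had 19.14 to 57.3 CPM, so these did not overlap. The endoderm-like sums parted in the same way, with 240.4 to 357 CPM in 6 embryos on P1 to P3 and 18.8 to 52.02 CPM in 3 without a plate name. The share of all genes whose sums part by plate without overlap was not counted. From E5.5 the log2 difference was 1.38 over all 13 embryos (SE 0.518, adjusted p = 0.0787), 1.84 with P1 to P3 alone (adjusted p = 0.00889) and -0.70 without a plate name (adjusted p = 0.802), all by edgeR. A direction for Lgr4 at this step cannot be told apart from the plates.

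**Figure D2:**
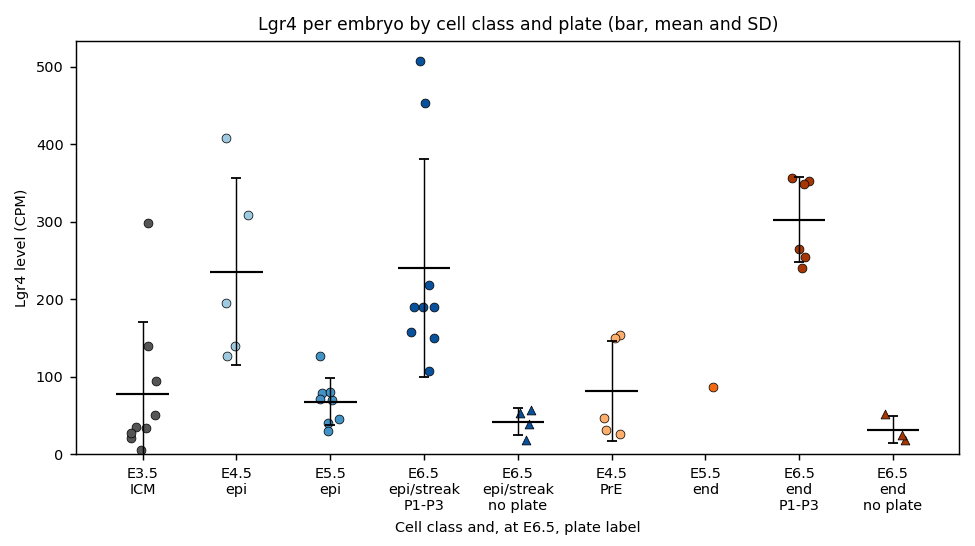
Lgr4 level in CPM per embryo, with the mean and SD over embryos as bars and the E6.5 embryos shown apart by plate label. Embryos on P1 to P3 lie between 107.4 and 508 CPM in both E6.5 classes, and those without a plate name (triangles) lie between 18.8 and 57.3 CPM.

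Lef1, the TCF-family factor that carries beta-catenin to its targets, had the sharpest onset of the 10 genes. It had no count in the 9 E3.5 embryos, nor in any of the 99 E3.5 cells. The 5 E4.5 epiblast-like sums had 99.1, 102.2, 64.7, 28.9 and 109.6 CPM, so the groups did not overlap, as in 5.35% of the genes tested. Lef1 was at least 1429-fold higher at E4.5, against a limit of 3 counts over the E3.5 group (adjusted p = 1.29e-12, edgeR). The 8 E5.5 sums stayed between 29.2 and 50.9 CPM and the 13 E6.5 sums between 5.78 and 113.7 CPM, and neither step passed, with log2 differences of -0.96 (SE 0.521, adjusted p = 0.314) and 0.30 (SE 0.421, adjusted p = 0.725) by edgeR.

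Axin2, a scaffold of the complex that destroys beta-catenin and a common readout of the pathway, was present from E3.5 and did not pass in any step. It had counts in 8 of 9 E3.5 embryos, from 0 through 24.6 to 50.6 CPM. The 5 E4.5 epiblast-like sums had 29.3, 27.9, 21.3, 1.26 and 8.54 CPM. The mean was 5.97 ± 5.00 CPM at E5.5 (n = 8) and 13.1 ± 14.5 CPM at E6.5 (n = 13), where 3 of 13 sums had no count.

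Nkd1, a Dishevelled-binding inhibitor, and Sp5, a zinc-finger factor, were sparse before E6.5. At E3.5 Nkd1 had 27 counts in 2 cells, 26 of them in a cell without an embryo number. It had no count in the 5 E4.5 epiblast-like sums and 0.696 to 5.03 CPM in the 8 E5.5 sums, so the groups did not overlap, as in 7.4% of the genes tested. It was the 1 of 9 tested genes that passed from E4.5 to E5.5, where 6.71% of the genes passed, at least 14.1-fold higher than 3 counts in the whole E4.5 group would give (adjusted p = 0.0322, edgeR). Its adjusted p was 0.0573 to 0.0798 when any 1 of the 5 E4.5 embryos was left out. At E6.5 Nkd1 had 0 to 3.08 CPM in the 9 sums of P1 to P3 and 2.01 to 22.2 CPM in the 4 without a plate name, and its log2 difference from E5.5 was 0.49 over all embryos (SE 1.07, adjusted p = 0.838, edgeR), -1.91 for P1 to P3 alone and 1.99 for embryos without a plate name.

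Sp5 had no count in any E3.5 or E4.5 cell. It had counts in 4 of 8 E5.5 epiblast-like sums, at most 0.959 CPM, and in 7 of 13 E6.5 epiblast/streak-like sums. Those 4 without a plate name had 2.34 to 30.0 CPM, and the 9 on P1 to P3 had 0 to 3.74 CPM. From E5.5 to E6.5 the log2 difference was 3.94 (SE 1.61, adjusted p = 0.118, edgeR), which did not pass. Plate and streak content move together here, since T had counts in 2 of the 9 sums on P1 to P3 and in all 4 without a plate name.

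At E4.5 Lef1 separated the lineages, while the Lgr4 sums of the lineages overlapped. In the PrE-like sums of the same 5 embryos Lef1 had 5.21, 1.97, 0, 0.566 and 0 CPM, below every epiblast-like sum, as in 6.64% of the genes tested. The mean was 1.55 ± 2.20 CPM against 80.9 ± 33.8 CPM (n = 5 each), and with the embryo as block the log2 difference was -6.58 (SE 1.13, adjusted p = 0.00485, edgeR). Lef1 was the 1 of 4 tested genes that passed, at the study's limit of a log2 difference over 2 for this stage, where 10.2% of 10119 genes passed. Lgr4 was lower in PrE-like cells in 5 of 5 embryos, as were 13.7% of the genes tested, with 31.1, 47.2, 26.1, 154.5 and 150.02 CPM. Its log2 difference of -1.77 (SE 0.251, adjusted p = 0.00201, edgeR) stayed under the limit of 2. The 14 endoderm markers summed to 15.6 to 1383 CPM in the epiblast-like and 5766 to 11208 CPM in the PrE-like sums, and the part of shared RNA in these differences was not tested.

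Axin2 was at 23.4 ± 11.8 CPM in PrE-like and 17.7 ± 12.3 CPM in epiblast-like sums (n = 5 each), and its log2 difference of 0.82 (SE 0.729, adjusted p = 0.487, edgeR) did not pass. Wnt5a had counts in all 5 PrE-like sums, from 0.153 to 8.74 CPM. Rspo3 had counts in 1 PrE-like sum, 14.1 CPM in embryo 4, of which 87.4% came from 1 cell. The other ligands, Nkd1 and Sp5 had at most 0.189 CPM in any PrE-like sum.

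At E5.5 only 1 embryo had 3 endoderm-like cells or more, so its values have no replicate. It had 31.6 CPM of Wnt3, all of it in 1 cell, 49.97 CPM of Rspo3 and 87.4 CPM of Lgr4, and no count of Lef1, Axin2, Nkd1 or Sp5.

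At E6.5 the endoderm-like cells held Rspo3, Wnt3 and Sp5, and none of these genes differed past the threshold from the epiblast/streak-like cells in edgeR. Marker lists of other cell types summed higher in the same endoderm-like sums. The 12 streak markers had 193.6 to 2697 CPM against 59.3 to 842.6 CPM. The 8 markers of trophectoderm and extra-embryonic ectoderm had 879 to 2061 CPM against 72.5 to 534.7 CPM. T reached 40.9 and 16.4 CPM in 2 of the endoderm-like sums. The 1 E5.5 endoderm-like sum had 1405 CPM of the streak list, with no count of T, Mesp1, Mesp2, Fgf3 or Cdh11 in that class. It had 1611 CPM of the other list, of which 3 of 8 genes had counts in that class. The cells this RNA came from, and its part in the levels given here, were not tested. Rspo3 had counts in 9 of 9 endoderm-like sums, from 4.40 through 44.2 to 264.9 CPM, and was above the epiblast/streak-like sum of the same embryo in 8 of 9. Its endoderm-like level parted by plate without overlap, at 32.6 to 264.9 CPM on P1 to P3 and 4.40 to 25.8 CPM without a plate name. The shares of all genes that part in this way, or are higher in 8 of 9 embryos, were not counted. The mean of Rspo3 was 66.5 ± 79.9 CPM against 14.01 ± 23.8 CPM (log2 difference 2.84, SE 1.26, adjusted p = 0.210, edgeR). Of the 2105 Rspo3 counts in the highest endoderm-like sum, 1645 came from 1 cell. Lef1 was lower in 9 of 9 embryos, as were 3.84% of the genes tested, 9.04 ± 9.34 CPM against 44.7 ± 22.9 CPM (log2 difference -2.82, SE 0.999, adjusted p = 0.117, edgeR). None of the 6 tested genes passed in edgeR, where 4.88% of 9484 genes passed. DESeq2 called both Lef1 (adjusted p = 0.00121) and Rspo3 (adjusted p = 0.00349), among 1647 genes. At an unadjusted p under 0.05 edgeR gave 2 of the 6 genes and 21.2% of all genes.

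Sp5 was higher in endoderm-like cells in 6 of 9 embryos, from 0 through 5.64 to 44.04 CPM, and Wnt3 in 6 of 9, from 0 through 41.4 to 170 CPM. The endoderm-like level of Wnt3 parted by plate as well, with 0 to 47.8 CPM on P1 to P3, where 3 of 6 embryos were higher, and 60.7 to 170 CPM without a plate name, where 3 of 3 were. The shares of all genes higher in 6 of 9 embryos, or parted by plate in this way, were not counted either. The log2 differences of Sp5 and Wnt3 were 3.52 (SE 2.10, adjusted p = 0.377, edgeR) and 1.13 (SE 1.27, adjusted p = 0.679). Lgr4 was higher in 5 and lower in 4 of the 9 embryos (log2 difference -0.05, SE 0.277). No lineage difference at E6.5 departed from that at E4.5 past the threshold in a test of the difference itself. It was nearest for Lgr4 (1.68, SE 0.441, adjusted p = 0.0661, edgeR) and was 4.01 for Lef1 (SE 1.71, adjusted p = 0.293), where 1.43% of 12198 genes passed.

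T-positive cells were those outside the endoderm-like clusters with at least 10 CPM of T, taken per cell without TMM factors, and 54 cells of E6.5 met this. They were uneven among embryos, with 23 of 30 cells in embryo 2 without a plate name, 11 of 54 and 10 of 19 in E6.75 embryos 1 and 2, 8 of 26 in embryo 3 of plate P1, 1 cell each in 2 further embryos and none in the other 7. The 4 embryos with at least 3 cells of each kind were compared within the embryo. The summed endoderm markers ran from 339 to 2712 CPM in the T-positive sums and the streak markers, T included, from 548 to 1451 CPM, against 268 to 3646.5 and 59.3 to 539 CPM in the T-negative sums of all 13 embryos.

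None of the 8 tested genes passed between T-positive and T-negative cells. The 1 gene that did, 0.009% of 11109, was T, which had chosen the cells. At an unadjusted p under 0.05 there were 2 of the 8 genes, Wnt3 and Nkd1, against 2.81% of all genes, and DESeq2 called 19 genes, Nkd1 among them (adjusted p = 0.0270). In the exact sign-flip permutation test of single genes, run for all 10 and left unadjusted, 4 embryos allow no two-sided p below 0.125.

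Nkd1 was higher in T-positive cells in 4 of 4 embryos, as in 5.72% of the genes tested. It had 1.54, 37.7, 5.58 and 12.9 CPM in the T-positive sums of P1 embryo 3, embryo 2 without a plate name and E6.75 embryos 1 and 2, against 0, 1.96, 1.68 and 0.202 CPM in their T-negative sums. The log2 difference was 4.16 (SE 1.21, adjusted p = 0.999, edgeR) and the exact permutation p was 0.125, the smallest that the design allows.

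Rspo3 was also higher in 4 of 4 embryos, at 70.7, 41.1, 6.74 and 9.46 CPM in T-positive and 12.2, 0, 3.18 and 8.28 CPM in T-negative sums in the same order. In the E6.75 embryos the gap was small. The log2 difference was 2.35 and the exact permutation p again 0.125.

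Wnt3 was higher in 3 of 4, with 107.5, 47.8, 59.6 and 41.1 CPM against 50.3, 9.55, 13.8 and 47.7 CPM (log2 difference 1.35, SE 0.484, adjusted p = 0.999, edgeR). Only E6.75 embryo 2 went the other way. Wnt3a had counts in the T-positive sums of embryo 2 without a plate name (5.30 CPM) and of E6.75 embryo 1 (2.85 CPM), and in none of the 4 T-negative sums. Its mean of 2.04 CPM was at least 35.3-fold higher than 3 counts over the T-negative group would give, which fell to at least 12.4-fold without embryo 2 and 15.9-fold without E6.75 embryo 1.

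Sp5 was higher in 3 of 4 embryos and its mean rested on 1 of them. It had 52.9 CPM in the T-positive sum of embryo 2 without a plate name, where the T-negative sum had none, and 2.06, 2.85 and 11.6 CPM against 4.12, 2.21 and 4.44 CPM in the others. Axin2 was higher in 3 of 4, with 3.60, 14.4, 23.7 and 30.9 CPM against 10.3, 4.02, 9.61 and 9.09 CPM. The log2 differences of Sp5 and Axin2 were 1.42 (SE 1.57) and 0.96 (SE 0.842), both with adjusted p = 0.999 in edgeR. Lgr4 was also higher in 3 of 4 and Lef1 in 2 of 4, with log2 differences of 0.25 (SE 0.273) and 0.30 (SE 0.414). Wnt5a and Wnt5b were each higher in 2 of 4. The T classes overlapped in every one of the 10 genes. The share of all genes that were higher in 3 of 4 embryos was not counted.

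**Figure D3:**
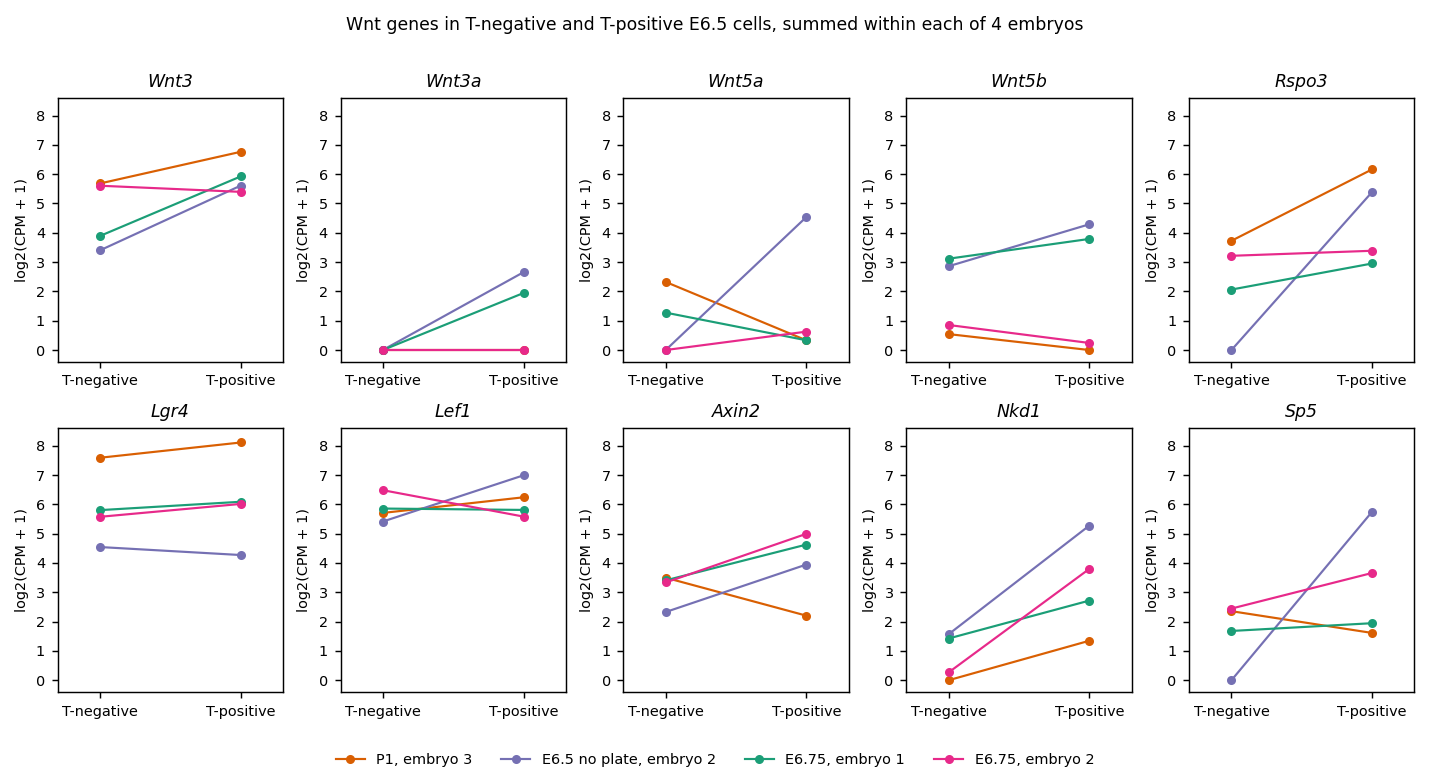
Level of each gene as log2(CPM + 1) in the T-negative and T-positive E6.5 cells of 4 embryos, each line joining the sums of 1 embryo. Nkd1 and Rspo3 rise along all 4 lines, Wnt3, Axin2, Sp5 and Lgr4 along 3, Lef1 along 2, and Lgr4 differs more between embryos than within them.

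Cells were also counted one by one, as a description, after each was thinned to 200000 counts, since deeper cells show more genes. Wnt3 had a count in 8.88% of E5.5 epiblast-like cells (exact 95% binomial interval 5.71 to 13.03%) and in 51.7% of E6.5 epiblast/streak-like cells (44.1 to 59.2%). Unthinned, these were 8.85% and 56.7%. Thinning left out 1 and 9 shallower cells of these classes. In the 47 endoderm-like cells of E6.5 the share was 53.2%. Lef1 had a count in 75.9% of E4.5 epiblast-like cells and in 3 of 75 PrE-like cells, and in 0 of 98 E3.5 cells, where 3 cells of 98, the limit taken for a count of 0, are 3.06%.

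Of 49 T-positive cells 87.8% had Wnt3 (75.2 to 95.4%), against 36.1% of T-negative cells (28.3 to 44.5%). Nkd1 had a count in 57.1% of T-positive and 9.03% of T-negative cells, Sp5 in 55.1% and 8.33%, Rspo3 in 63.3% and 24.3%, and Axin2 in 57.1% and 27.1%. The T-negative cells here came from all 13 embryos, and the T-positive shares rest in part on embryo 2 without a plate name. In the other 3 embryos compared, Axin2 was found in 11 of 27 T-positive and 27 of 66 T-negative cells, Sp5 in 6 and 9, Nkd1 in 9 and 8, Rspo3 in 13 and 23, and Wnt3 in 23 and 34. In P1 embryo 3 the T-positive share was the lower one for Axin2 (2 of 8 against 7 of 18) and Sp5 (1 of 8 against 4 of 18). Wnt3a had a count in 7 of the 49 and in none of the T-negative cells, where the same limit of 3 cells is 2.08%. Intervals cover counting error only, and cells of 1 embryo are not independent.

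A cell of embryo 2 without a plate name had counts of all 10 genes after thinning, the 1 such cell of the series. A T-positive cell of that embryo had a median of 8 of the 10 genes, against 2 in its 7 T-negative cells. In the other 3 embryos the medians were 4 in T-positive and 3, 3 and 4 in T-negative cells, so that the pooled medians of 6 and 3 rest largely on embryo 2. All 20 of its T-positive cells had Sp5, which was found in 1 of 8, 3 of 11 and 2 of 8 in the other embryos.

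**Figure D4:**
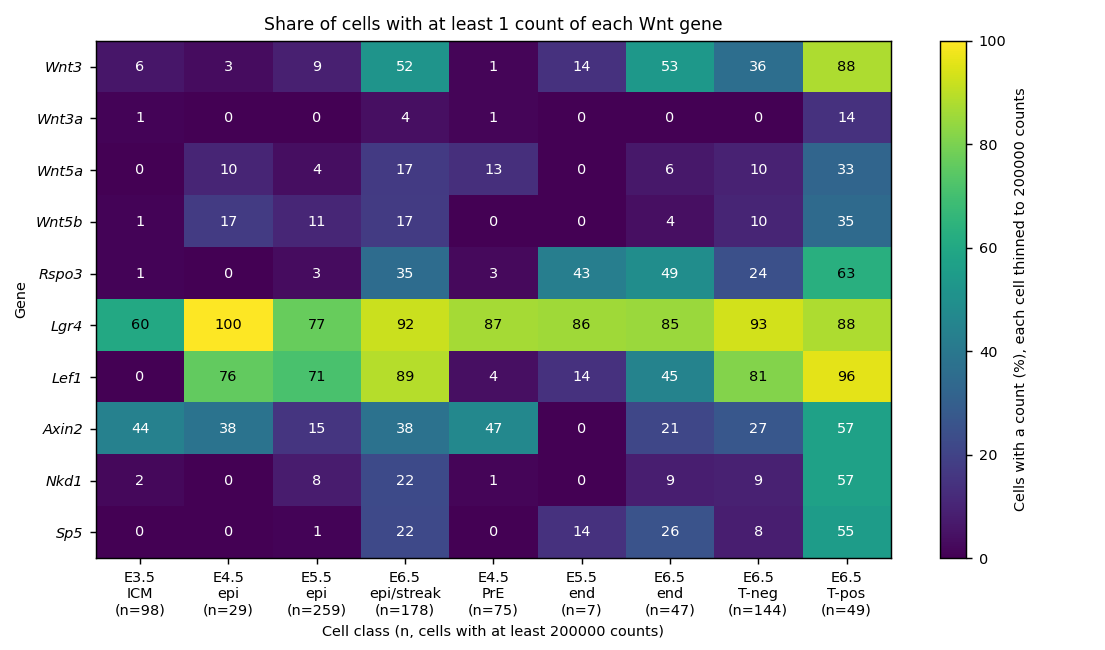
Percent of cells of each class with at least 1 count of each gene, after thinning every cell to 200000 counts, with the number of cells under each class. Lgr4 is found in most cells of every class, Lef1 in the epiblast from E4.5 on, and Sp5, Nkd1 and Wnt3a in a larger percent of T-positive than of T-negative cells.

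Of 59 other Wnt pathway genes, 41 were tested over the epiblast stages. Fewer of them passed after E4.5, as was so for all genes (20.2%, then 6.71% and 8.86%). From E3.5 to E4.5 9 were higher and 3 lower, against 12.8% and 7.42% of all genes tested. Wls, the carrier that Wnt ligands need for secretion, had no count in 9 E3.5 embryos and was found in 1 of 5 E4.5 sums, Fzd2, a Frizzled receptor, in 0 of 9 and 2 of 5, and Rspo1 in 0 of 9 and 2 of 5. Fzd10 was higher as well (0.0271 to 6.53 CPM, adjusted p = 0.000757, edgeR). Notum, an enzyme that inactivates Wnt ligands, rose from 0.179 ± 0.475 CPM to 32.7 ± 20.9 CPM (log2 difference 7.15, adjusted p = 0.000142, edgeR) and fell to 0.0865 ± 0.245 CPM at E5.5 (log2 difference -8.42, adjusted p = 0.000233).

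Btrc, which marks beta-catenin for destruction, fell from 239.1 ± 62.3 to 16.7 ± 8.71 CPM between E3.5 and E4.5 (log2 difference -3.88, adjusted p = 3.88e-07, edgeR), and the scaffold Apc rose from 29.6 ± 13.8 to 88.2 ± 49.9 CPM (adjusted p = 0.00640). Cdx2, found in 3 of 9 E3.5 embryos and in none at E4.5, and Apcdd1, at 45.5 ± 84.5 and 2.0 ± 1.56 CPM, were lower at E4.5. Cdx2 is also 1 of 8 trophectoderm markers. These summed to 401 to 1998 CPM in 10 E3.5 groups, the cells without an embryo number among them. In the E4.5 epiblast-like sums they had 148.1 to 439 CPM. The part of this in the fall of Cdx2 was not tested. From E4.5 to E5.5 3 passed as higher and 2 as lower, against 3.75% and 2.96% of all genes. Ror1, Fzd6 and Fzd2, all receptors, were higher, Ror1 and Fzd6 having no count at E4.5 and Fzd2 moving from 2.19 ± 3.06 to 38.7 ± 14.6 CPM.

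From E5.5 to E6.5 2 of the 41 passed, both higher, while 3.78% of all genes passed as higher and 5.08% as lower. Gsk3b, the kinase of the destruction complex, went from 75.3 ± 20.6 to 291 ± 145.95 CPM and the TCF factor Tcf7l2 from 21.5 ± 7.10 to 54.1 ± 31.5 CPM. Their log2 differences of 1.94 and 1.33 were 2.30 and 1.68 on P1 to P3 but 0.88 (adjusted p = 0.282) and 0.25 (adjusted p = 0.958) without a plate name in edgeR, so neither passed there. The median log2 difference of the 14 tested secretion and receptor genes was 0.32, and that of all genes -0.03.

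Between the lineages at E4.5, 2 of 26 tested genes were higher and 3 lower in PrE-like cells, against 6.44% and 3.73% of all genes. The higher genes were Wls (21.9 ± 18.1 against 6.86 ± 15.3 CPM) and the Sp5 relative Sp8 (36.9 ± 32.03 against 0.144 ± 0.321 CPM). Among the 3 that were lower were Notum (1.24 ± 1.53 against 32.7 ± 20.9 CPM) and the cyclin gene Ccnd1 (6.06 ± 3.80 against 158.2 ± 40 CPM, adjusted p = 0.000338, edgeR). At E6.5 2 of 28 were higher in endoderm-like cells and 2 lower, against 3.19% and 1.69% of all genes. Higher were Wls (147.6 ± 55.5 against 31.7 ± 16.7 CPM, adjusted p = 0.0449, edgeR) and Tcf7l2 (180 ± 146.9 against 41.8 ± 24.5 CPM), and lower were Fzd2 (12.4 ± 11.3 against 92.97 ± 79.6 CPM) and Ccnd1 (91.97 ± 84.2 against 408 ± 100.6 CPM). Between T-positive and T-negative cells none of 35 passed. The authors removed as trophoblast those cells with more than 1 count of Elf5, of Wnt7b and of Tex19.1 together, so Wnt7b was among the genes that chose the cells. Of the 15 other ligands 4 had counts enough for a test over the stages, none between lineages and 1 between the T classes, and none passed.

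Across all 50 sums of an embryo and class, and among 8400 genes with a mean of at least 10 CPM, the patterns most like that of Wnt3 were those of Rbp4 (Pearson r = 0.83), Apoc2 (0.81) and Sgce (0.81), Rbp4 being 1 of the 14 endoderm markers. For Sp5 they were Spp2 (0.71), the streak gene Mixl1 (0.70) and Afp (0.67), and for Lef1 2900041M22Rik (0.90), Ifitm1 (0.90) and Calca (0.86). The sums share stage, plate and depth, and these values are descriptions without a test.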

How the data were processed

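The authors deposited 1 table of raw counts, with a row per gene and a column per cell and no normalization. Per the labels and the study's methods, reads were trimmed with Trim Galore, aligned to GRCm38 with HISAT2, filtered on mapping quality and counted with SeqMonk. The submitters' processing notes name Trim Galore 0.4.3 and HISAT2 2.0.5. Cells with few genes or much mitochondrial RNA, trophoblast cells (by Elf5, Wnt7b and Tex19.1) and wells of more than a pair of cells had been left out. Library strand was not given in the sources used here.

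All 24483 rows of chromosomes 1 to 19 entered the fits. The 10 genes, the 59 other pathway genes and the comparisons were chosen with earlier results of these data known. Stage, plate and embryo were read from titles, and 9 E3.5 cells without an embryo number were left out of the sums. Clustering followed the steps of SC3 (8 clusters over all cells, 5 over E6.5 cells, 70 genes held out), with doublets kept. Counts were summed by embryo and class (3 cells or more) and tested with edgeR 4.0.16 in R 4.3.3 (TMM factors, filterByExpr, and the quasi-likelihood test, with Benjamini-Hochberg adjustment over all genes). Epiblast stages shared 1 fit. Lineages and T classes were compared with the embryo as block, since both sums come from 1 animal. Deviations of the pairs correlated at 0.0398 to 0.273. The interaction test was added after the data were seen. Shares used scipy's exact interval, and a share of 0 the limit of 3 cells.

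Named genes were the 10, up to 3 of each other list with the largest change among those that passed, and the 3 most like Wnt3, Sp5 and Lef1. Alternatives were DESeq2 1.42.0, other size factors, no filter, a test against the limit, single wells, other minimum cells, Ward clustering, other plates and T limits, leaving out embryos and omitting the block.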

Additional observations from a re-analysis of the deposited data

Results flagged for a closer look

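In 45 groups of 4 to 10 embryos, in which at least as many embryos had a count as had none, 4 CPM values stood apart from the rest by Dixon's test. That test flags about 1 group in 20 by chance only where values are normally distributed, and all 4 were the highest of their group. Lgr4 in E3.5 embryo 1 of plate P8 was at 298 CPM, over 3 cells, against 139.3 CPM in the next embryo. Of the 838 Lgr4 counts in that sum, 741 came from 1 cell. Rspo3 in E5.5 epiblast-like cells of embryo 1 of plates P2 and P3 was at 7.25 CPM, over 26 cells, against 0.928 CPM in the next. Rspo3 in E6.5 endoderm-like cells of embryo 6 of plate P2 was at 264.9 CPM, over 5 cells, against 110.9 CPM in the next. There 1645 of the 2105 counts came from 1 cell. Wnt5a in T-positive cells of embryo 2 without a plate name was at 22.3 CPM, over 23 cells, against 0.546 CPM in the next of the 4 embryos.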

How the results depend on the processing

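Of 90 alternative counts of genes that passed, 71 stayed within 1.5 times the count reported. The counts reported were 2658 for E3.5 to E4.5, 881 for E4.5 to E5.5, 1163 for E5.5 to E6.5, 1029 for the E4.5 lineages, 463 for the E6.5 lineages and 1 for the T classes, and alternatives are given as a percent of these. A test against the log2 limit gave 60.76%, 52.1%, 35.43%, 21.38% and 35.42% of the first 5 in this order. DESeq2 gave 173.7% for the E4.5 lineages, 355.7% for the E6.5 lineages and 19 genes between the T classes. Sums of at least 5 cells gave 166.5% for E4.5 to E5.5, 156.8% for E5.5 to E6.5 and 32.4% for the E6.5 lineages. Without a filter on low counts the count was 247.9% for E5.5 to E6.5 and 13 genes between the T classes. Embryos without a plate name alone gave 22.01% from E5.5 to E6.5. For the E6.5 lineages, P1 to P3 alone gave 29.16% and the data without E6.75 cells 42.76%, and without E6.75 cells 15 genes passed between the T classes. Leaving out 1 embryo gave 84.8 to 91.99% for E3.5 to E4.5, 64.36 to 81.38% for E4.5 to E5.5 (lowest without E4.5 embryo 4), 65.69 to 80.47% for the E4.5 lineages (lowest without E4.5 embryo 1) and 1 to 1 genes between the T classes. Without the replicate block the counts were 88.63% for the E4.5 lineages, 94.82% for the E6.5 lineages and 1 gene between the T classes, and no call among the 10 genes changed.

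Of 654 alternative values of the 10 genes, 595 kept direction and call, 17 lost the call, 19 gained it and 23 changed sign. Lef1 (E3.5 to E4.5 and E4.5 lineages) and Wnt5a (E3.5 to E4.5) passed in all 14 alternatives. Nkd1 from E4.5 to E5.5 lost its call in 7 of 13 and Wnt3 from E5.5 to E6.5 in 8 of 14, with adjusted p up to 0.0798 and 0.209, and Wnt5b from E3.5 to E4.5 in 2 of 14. The gained calls were Lgr4 in 4 alternatives from E3.5 to E4.5, 4 from E4.5 to E5.5 and 5 from E5.5 to E6.5, Rspo3 in 3 from E5.5 to E6.5, and, with DESeq2, Lef1 and Rspo3 between the E6.5 lineages and Nkd1 between the T classes. The changes of sign were all of values that had not passed. From E3.5 to E4.5 they were Nkd1 with DESeq2 (0.039) and Axin2 with single wells (0.20). From E4.5 to E5.5 Wnt5b became 0.056 with single wells and ran from -0.43 to 0.51 with 1 E4.5 embryo left out, being above 0 without embryo 1 (0.51) and embryo 4 (0.27). From E5.5 to E6.5 Wnt5b became -0.76 with sums of at least 5 cells and -0.23 with embryos without a plate name merged into P1, Nkd1 -0.51 with Ward clustering, -1.91 on P1 to P3 and -1.58 in cells under 10 CPM of T, and Lgr4 -0.70 without a plate name. Between lineages Wnt5a at E4.5 became -0.59 without the block, and Lgr4 at E6.5 became 0.12 with merged embryos, 0.29 without E6.75 cells, 0.28 on P1 to P3 and 0.11 without the block. Between the T classes Lgr4 became -0.24 with sums of at least 1 cell, Wnt5b 0.43 without a plate name, 1.05 without the block, 0.43 without replicate 1 and 0.38 without replicate 4, and Lef1 -0.012 with 50 CPM of T and -0.13 to 0.70 with 1 embryo left out, the lowest without replicate 2. The causes were not tested. Cells under 10 CPM of T and the treatment of the 15 unnamed cells were chosen after seeing the data. The T classes on P1 to P3 alone were not run, since only 1 embryo there had 3 cells or more of each kind.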
